A study of Drosophila melanogaster with 6 samples.

Results

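The surviving tagged RNA of whole Drosophila melanogaster embryos after a 3-hour chase was compared between a chase with actinomycin D (U+actD) and a chase in uridine only (UO). The comparison rests on 2 of the 6 arrays of the series, 1 from each treatment, and on the 7894 genes with a value on both in the authors' normalized table. All groups were stage 12 to 15 embryos carrying UAS-T.g.UPRT without a GAL4 driver, described as wildtype. The transgene for cell-specific tagging thus had no driver and the tag was offered to every tissue. The paper states that either of its UAS-T.g.UPRT lines was used, and which line served each series is not known here. Permeabilized embryos took up 1 mM 4-thiouridine for 1 hour at 30°C (the pulse) and were then moved to 10 mM uridine at the same temperature (the chase). In the U+actD series the chase medium also held actinomycin D, and in the UO series it did not. Embryos were pooled at each time point before RNA extraction. The paper states that its experiments had biological replicates, but the 6 arrays hold only 1 for each group. Neither the number of pools nor the age of single embryos is known here, and the values describe 2 libraries with no replicate check. No p-value was computed for any difference.

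4-Thiouridine is taken up and built into new RNA, which can then be biotinylated through its thiol group and purified from the older, untagged RNA. When the tag is replaced by an excess of uridine, the tagged RNA that remains is that which has not yet been degraded, unless tag already in the cell continues to be used. Actinomycin D binds DNA and stops elongating RNA polymerases, so a chase that includes it tests whether transcription during the chase adds tagged RNA. At these stages the germ band retracts, the epidermis closes over the back, axons grow and muscles form, and the cells of the epidermis and gut begin to make the proteins of cuticle and digestion.

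Each array was centred on its median gene, and a difference is the log2 signal on the U+actD array minus that on the UO array. The median signals were 1696 on the U+actD 3-hour array and 787.5 on the UO 3-hour array, and centring removes this gap, so nothing here bears on the total amount of tagged RNA that survived. Fewer cells of a type and less RNA per cell cannot be told apart in whole embryos. The U+actD columns of the table equalled the net signals of the deposited scanner files, once these were multiplied by 1 constant for the array, in 100% of 17331 spots. For UO at 3 hours the same was true of 0.0664% of 16578 spots, so the UO table column and the UO scanner file hold different measurements, and which of them is the array named by the labels was not settled. The scanner file was therefore used as an alternative UO source for the 7673 genes above background on both 3-hour scanner arrays, with the U+actD array shared by both sources. The only yardstick of error was the difference between the pulse arrays of the series, taken as free of actinomycin D because the study's methods put it in the chase medium, although the label of the U+actD pulse array also names the treatment. It covers embryo collection, any difference in fly line, labelling, array design and scan together. These cannot be told apart from the treatment at 3 hours.

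With the UO table column, the larger of the gene groups described here held similar shares of the signal on both 3-hour arrays. Messages for the proteins of the cytosolic ribosome held 19.8% of the summed signal on the U+actD array and 19.2% on the UO array at 3 hours, against 3.36% and 6.30% at the pulse. The 100 brightest genes held 27.0% of the signal in U+actD and 27.8% in UO at 3 hours, and 67 and 62 of them were ribosomal protein genes. At the pulse the 100 brightest genes held 4.78% of the signal in U+actD and 9.44% in UO. These are shares of signal and not of molecules. At 3 hours 48 of the 87 ribosomal protein genes in U+actD and 27 in UO stood at or above 90% of the scan limit. The likeness of their shares is therefore limited by the scan. The U+actD pulse array had 651 saturated genes. What saturation did to the pulse shares was not tested. At 3 hours, with genes saturated on any array left out, the 15 remaining ribosomal protein genes held 1.43% in U+actD and 1.16% in UO. Messages for the respiratory chain and ATP synthase, the mitochondrial machinery of ATP production, held 2.52% in U+actD and 2.36% in UO, and those for translation factors held 3.07% in U+actD and 3.41% in UO. With the table column, the groups that differed most were small. Cuticle protein messages held 0.195% of the signal in U+actD and 0.0401% in UO, a ratio of 4.85, and messages of digestive proteases held 0.0829% in U+actD and 0.0287% in UO, a ratio of 2.89. With the UO scanner array the ribosomal protein share was 17.7% in U+actD and 29.7% in UO over the 85 genes measured there. The cuticle and protease ratios were 4.25 and 2.91 with that array. The likeness of the ribosomal protein shares thus depended on the UO source.

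**Figure D1:**
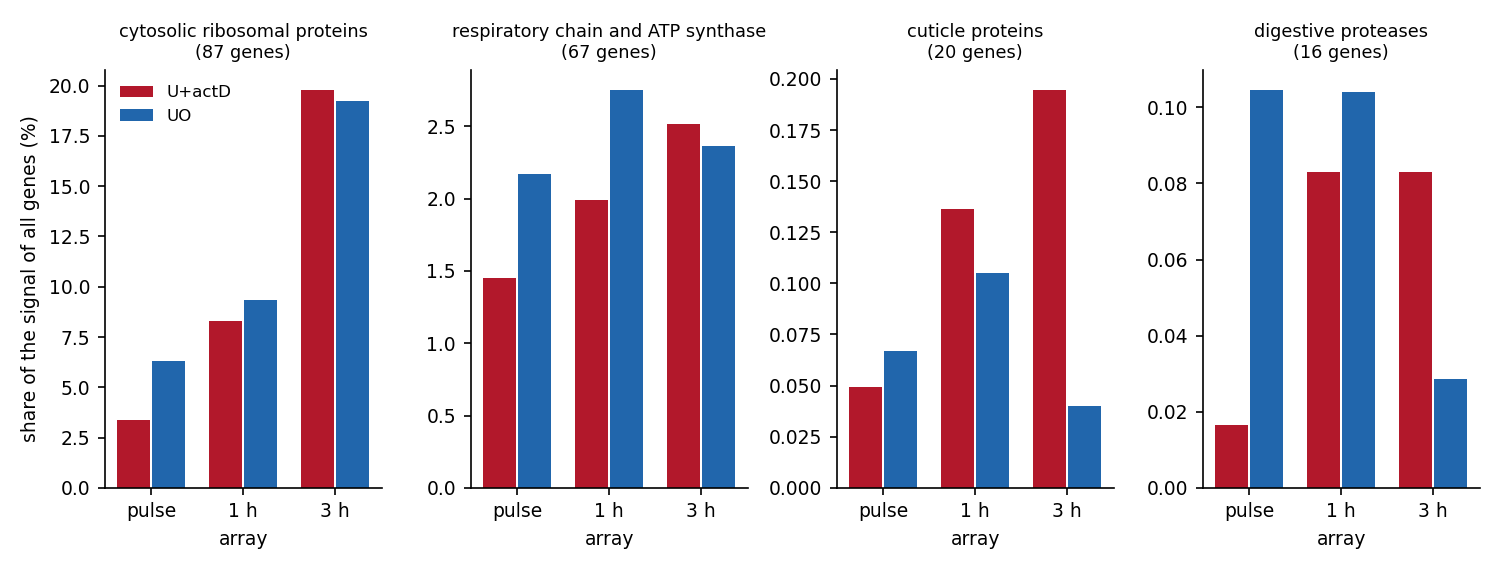
Share of the summed signal of 7894 genes (%) held by 4 gene lists on the pulse, 1-hour and 3-hour arrays of U+actD (red) and UO (blue), 1 array per bar with no replicates; each panel has its own scale. At 3 hours the ribosomal protein bars reach 19.8% in U+actD and 19.2% in UO, while the cuticle protein bar reaches 0.195% in U+actD and 0.0401% in UO.

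Across single genes, 882 were at least 2-fold higher in U+actD than in UO at 3 hours (11.2% of 7894) and 962 were at least 2-fold lower (12.2%). The difference had a median of -0.15 and an SD of 0.99 over genes. Genes higher in U+actD were 47.8% of those past 2-fold, but 61.7% when each array was centred on its 75th percentile and 66.3% when a curve over the signal range was subtracted, so which direction had more genes depended on the scaling. The pulse arrays differed by a similar amount, with 704 genes higher in U+actD (8.92%), 1323 lower (16.8%) and an SD of 0.90. Signals across the 7894 genes correlated between U+actD and UO with a Spearman's rho of 0.883 at 3 hours and 0.888 at the pulse, on arrays that share the probe sequences and therefore their affinities. The number of genes past 2-fold at 3 hours was thus of the size found between the pulse arrays. The same genes were involved in part. Of the 882 genes higher at 3 hours, 331 were already 2-fold higher at the pulse, which is 37.5% of the 882 and 47.0% of the 704, and 80 had been 2-fold lower. Of the 962 lower at 3 hours, 346 were among the 1323 that were 2-fold lower at the pulse (26.2% of these), and 18 had been 2-fold higher. Over all genes the difference at 3 hours and that at the pulse had a Spearman's rho of 0.46. With the UO scanner array, 405 genes were higher in U+actD (5.28% of 7673) and 771 lower (10%), and on the pulse arrays 1089 were higher (14.2%) and 1872 lower (24.4%). Over 6927 genes the UO scanner pulse array had a rho of 0.721 with the U+actD pulse array and 0.856 with the U+actD 3-hour array. The UO table pulse column had 0.866 and 0.845. Ribosomal protein messages changed by 0.07 over the UO chase by scanner and by 2.03 with the table. The scanner pulse counts are therefore not a plain yardstick of error, and the cause was not tested. After 1 hour of chase 1198 genes were higher (15.2%) and 1214 lower (15.4%) with the table, and 831 higher (10.8%) and 994 lower (13%) with the scanner arrays.

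Dim genes varied most. In the 1974 dimmest genes the difference at 3 hours had an SD of 1.32, with 16.3% of genes 2-fold higher and 18.4% lower in U+actD, and in the 1974 brightest the SD was 0.74, with 4.91% higher and 12.4% lower. Of the 882 genes higher in U+actD, 215 had a UO table signal under 108.2, the level that 95% of the negative control spots of the U+actD 3-hour array stayed below. No size of difference is given in the text for a single gene with such a UO signal. Of the 962 genes that were lower, 219 were not above background on the U+actD array. Probes of the same gene differed by a pooled SD of 0.99 in the 880 genes with several probes, as much as genes differed from each other.

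**Figure D2:**
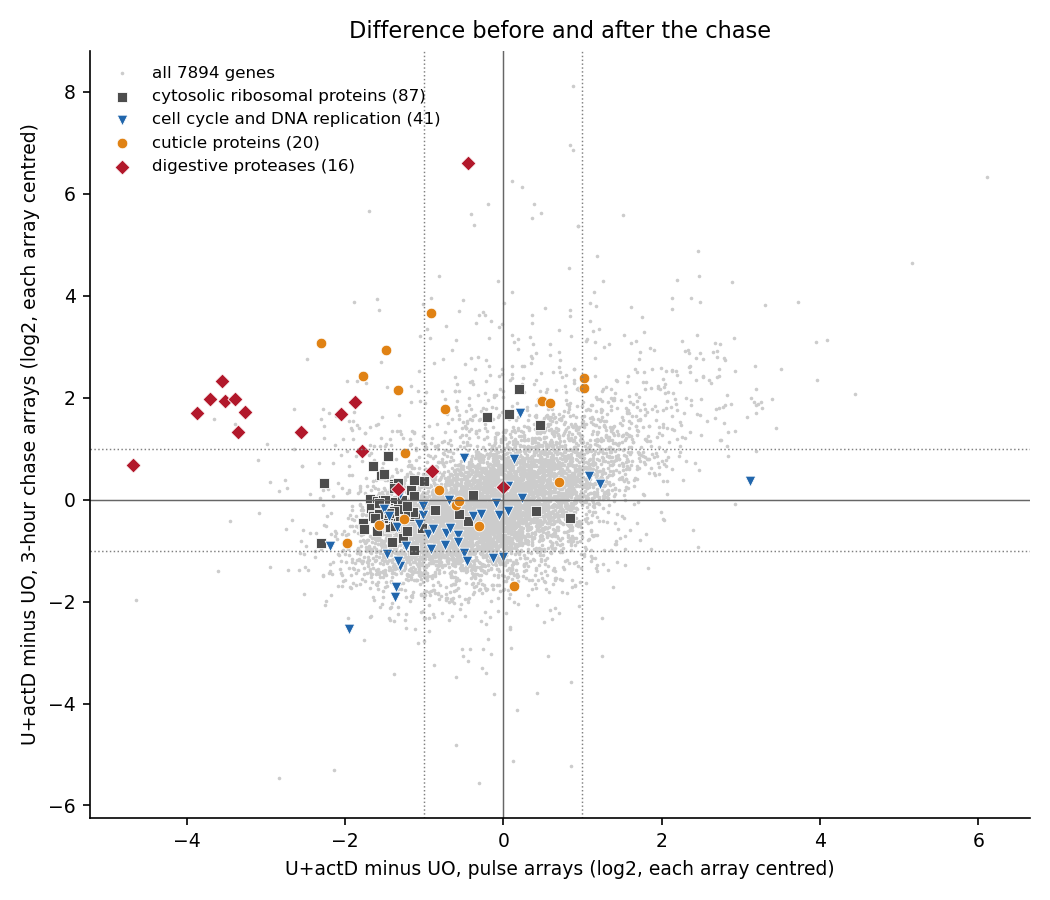
U+actD minus UO on the 3-hour arrays (vertical, log2) against the same difference on the pulse arrays (horizontal, log2) for 7894 genes, each array centred on its median gene; dotted lines mark 2-fold and coloured symbols the members of 4 lists. Digestive proteases lie at the upper left, with medians of 1.68 at 3 hours and -2.91 at the pulse, and most ribosomal protein genes lie at the left near the horizontal zero line, 60 of the 87 at the scan limit on at least 1 pulse array.

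A smaller set of genes was past 2-fold in the same direction against either UO source. Of the 6694 genes that were above background on both 3-hour scanner arrays and saturated on neither, 153 were higher in U+actD with both UO sources (2.29%) and 142 were lower (2.12%). Of the 153 higher genes, 69 were also 2-fold higher at the pulse and 26 were 2-fold lower there, and of the 142 lower genes 62 were also lower at the pulse and 2 were higher. The median of the pulse difference was 0.88 in the higher set and -0.87 in the lower set. About as many of these genes had thus differed 2-fold in the same direction before the chase as had not.

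The genes named next were taken from those past 2-fold with both UO sources, so their passing by scanner was a condition of the choice. Among the 10 genes with the largest positive differences, several carried the difference from the pulse. CG34354 had a signal of 30557 in U+actD and 178 in UO at 3 hours, and 62566 in U+actD and 361.9 in UO at the pulse, a difference of 6.32 at 3 hours and of at least 6.11 at the pulse, where the U+actD spot was at the scan limit. The UO scanner array gave it a difference of 1.86. CG32797 had 11081 in U+actD and 206 in UO at 3 hours, a difference of 4.64, against 5.17 at the pulse and 4.02 with the UO scanner array, where it stood at 75 and so close to the threshold of 50. Both genes were thus far apart between the series before the chase. Sdc, which encodes the heparan sulfate proteoglycan syndecan that acts with Slit in axon guidance, had 27100 in U+actD and 861 in UO, a difference of 3.87, with at least 2.49 at the pulse, where U+actD was saturated, and 1.99 by scanner. Rab35, a small GTPase of membrane traffic, had 2664 in U+actD and 42 in UO, and a difference of 2.45 at the pulse. CG46301 had 100181 in U+actD and 2995 in UO (3.96, with at least 2.38 at the pulse, where U+actD was at the scan limit).

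Other genes of the same 10 were within about 2-fold at the pulse. Mnr had 7375 in U+actD and 203 in UO at 3 hours, a difference of 4.08, and 8047 in U+actD and 2975 in UO at the pulse, a difference of 0.11. With the UO scanner array, where passing 2-fold was a condition of the choice, Mnr had 2.20. CG8249, Naa20A, Syx13 (a syntaxin of vesicle fusion) and janA had U+actD signals of 1795, 1282, 1410 and 1715 at 3 hours, and UO table signals of only 3, 13, 45 and 59. All 4 of these UO values lie under 108.2. With the UO scanner array their differences were 1.35, 1.35, 1.39 and 1.01. On that array CG8249, Naa20A and Syx13 stood at 62, 55 and 59.5, close to its threshold of 50, and janA stood at 284.

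The 10 genes with the largest negative differences included PCNA and DNAlig1. PCNA, the sliding clamp of DNA polymerases, had 4382 in U+actD and 11773 in UO at 3 hours, a difference of -2.53, with -1.95 at the pulse and -1.37 by scanner. DNAlig1, the ligase that joins Okazaki fragments, had 1020 in U+actD and 3216 in UO, a difference of -2.76, with -1.76 at the pulse and -1.20 by scanner. Both were thus lower in U+actD before the chase as well. Dfd, the homeotic gene of the maxillary and mandibular segments, had the most negative value, with 918.5 in U+actD and 16038 in UO at 3 hours, but 7416 in U+actD and 1631 in UO at the pulse. Its difference was -5.23 with the UO table column and -1.07 with the UO scanner array. Mkk4, a kinase of the JNK pathway, had 1244 in U+actD and 3927 in UO (-2.77, and 2-fold lower at the pulse as well), and sturkopf had 341.7 in U+actD and 1049 in UO (-2.73, with -0.19 at the pulse). CG5861 had 2240 in U+actD and 5456 in UO, a difference of -2.39, with -0.28 at the pulse and -1.64 by scanner. The remaining 4 genes, Ocrl, CG16926, Ciz1 and CG11563, had differences between -2.37 and -2.23 at 3 hours and between -1.96 and -0.77 at the pulse.

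**Figure D3:**
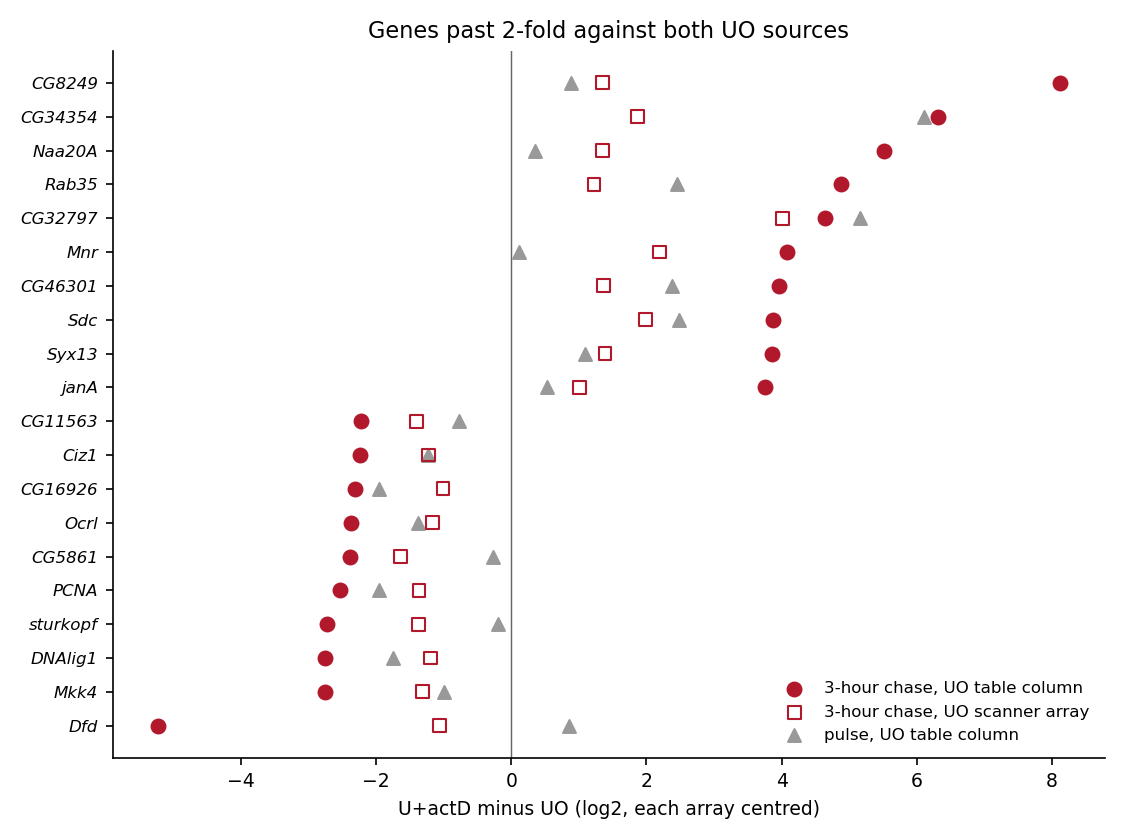
U+actD minus UO (log2, each array centred) of the 10 genes with the largest positive and the 10 with the largest negative difference among those past 2-fold against both UO sources; filled circles, 3-hour arrays with the UO table column; open squares, 3-hour arrays with the UO scanner array; triangles, pulse arrays. CG34354 and CG32797 have triangles at 6.11 (a lower bound, at the scan limit in U+actD) and 5.17, and Mnr has its triangle at 0.11. The circles of Rab35, CG8249, Naa20A, Syx13 and janA rest on UO signals under 108.2.

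Digestive proteases gave the clearest change between the pulse and the end of the chase. The list holds trypsins and the Jonah genes, which encode serine proteases of the gut lumen, and 16 were measured. At 3 hours 11 of them were at least 2-fold higher in U+actD and none was lower, against 11.2% and 12.2% of all genes, and their median difference was 1.68. At the pulse 13 of the 16 were 2-fold lower in U+actD, against 16.8% of all genes, and their median was -2.91. Jon65Ai had signals of 2505 at the pulse, 14907 after 1 hour and 5418 after 3 hours in the U+actD series, and 14565, 9342 and 779 in the UO series. Jon65Aiv had 1147, 4862 and 2383 in U+actD, and 5242, 3535 and 291 in UO. As uncentred signal, both genes were highest after 1 hour of chase in U+actD and at the pulse in UO. Relative to the median gene, the list changed by 3.24 between the pulse and 3 hours in U+actD, where 16 of 16 members gained, and by -1.20 in UO, where 3 of 16 gained.

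The size of the protease difference at 3 hours depended on the member. Jon65Ai had a difference of 1.69, Jon65Aiv 1.93 and Jon25Biii 2.33, with Jon25Biii at 3059 in U+actD and 283 in UO. Jon99Fii, with 3676 in U+actD and 1072 in UO, had a difference of 0.67, and Try29F, with 2807 in U+actD and 1131 in UO, had the lowest, 0.20. Jon99Ci had 418.6 in U+actD and 2 in UO, and its value in UO is under 108.2. The median signal of the list was 1825 in U+actD and 247.5 in UO, so the UO values were dim for the most part. With the UO scanner array 10 members were measured, 6 were 2-fold higher in U+actD and none was lower, with a median of 1.14. Of all genes 5.28% were higher and 10% lower with that array. Jon65Ai had 1.64 and Jon65Aiv 1.83 with that array, where their UO signals were 190 and 81.2. Genes of these families are similar in sequence and share clusters, so probes may read more than 1 of them, and members are not independent of each other.

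Cuticle proteins, which bind chitin in the outer layer that the epidermis secretes, were likewise higher in U+actD after the chase. Of 20 measured members 10 were at least 2-fold higher and 1 was lower, with a median of 1.35, which became 0.63 when low values were set to the U+actD background threshold. At the pulse 2 were higher and 8 lower, with a median of -0.77. The 4 genes next described were chosen after their values were seen. Lcp65Ag3 had 6672 in U+actD and 246 in UO at 3 hours, 12.6-fold higher after centring (3.65), and 2605 in U+actD and 1959 in UO at the pulse (-0.91). Lcp65Ag2 had 11299 in U+actD and 622 in UO (3.08, with -2.31 at the pulse), and Lcp65Ag1 had 4657 in U+actD and 284 in UO (2.93, with -1.48 at the pulse). Cpr65Ax1 had 34318 in U+actD and 2957 in UO at 3 hours, and 13733 in U+actD and 18718 in UO at the pulse. Its difference was 2.43 at 3 hours and -1.77 at the pulse. All 4 genes thus lay on opposite sides of UO before and after the chase. The Lcp65Ag copies are nearly identical to each other, and whether their probes read separate messages was not tested.

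Other cuticle members behaved less uniformly. Cpr49Ag and Cpr47Eg were higher in U+actD at 3 hours, with 2.19 and 1.93, and had 1.02 and 0.49 at the pulse. Lcp65Ad was the member 2-fold lower in U+actD, with 104.2 in U+actD and 157 in UO, and was not above background on the U+actD array. Of the 13 members measured with both UO sources, 7 were 2-fold higher with both and none was lower with both. Their median was 1.03 with the UO scanner array, but over all 22 genes above background on the scanner arrays it was 0.48, with 9 higher and 4 lower. Cpr66Cb had 259.7 in U+actD and only 35 in UO, and it had -1.03 with the UO scanner array. Relative to the median gene the list changed by 1.49 over the chase in U+actD and by -0.08 in UO, with gains in 18 and 8 of the 20 members.

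**Figure D4:**
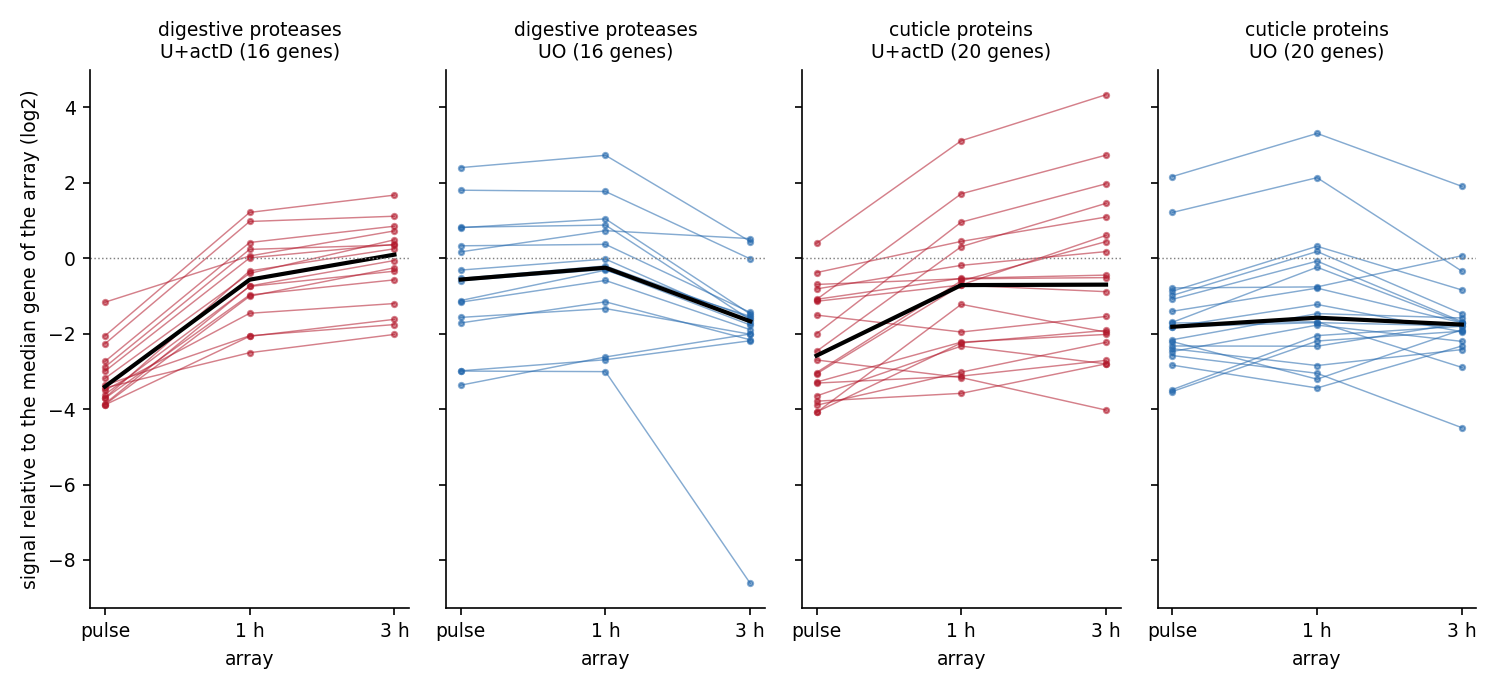
Signal relative to the median gene of each array (log2) on the pulse, 1-hour and 3-hour arrays for 16 digestive protease genes (left pair of panels) and 20 cuticle protein genes (right pair), U+actD in red and UO in blue; thin lines are genes and the black line their median. Between the pulse and 3 hours the protease median changed by 3.24 in U+actD and by -1.20 in UO; the single UO line that drops furthest is Jon99Ci, at a signal of 2.

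The Tweedle and Osiris families, both linked to cuticle and present as clusters of related genes, separated from each other. Of 11 Tweedle genes 7 were 2-fold higher in U+actD and none was lower, with a median of 1.30, and of 10 Osiris genes none was higher and 1 was lower, with a median of 0.09. TwdlV had 4750 in U+actD and 322 in UO (2.78), TwdlN 4780 in U+actD and 477 in UO (2.22), TwdlL 2998 in U+actD and 500.0 in UO and TwdlB 2358 in U+actD and 415 in UO (1.40). Against the UO scanner array these 4 had 2.67, 2.42, 2.17 and 1.79, and they were the members that passed 2-fold with both sources. TwdlN, TwdlL and TwdlB had been lower in U+actD at the pulse, between -1.92 and -1.17, whereas TwdlV had been higher, at 1.16. Their signals on the UO scanner array lay between 75 and 98, close to its threshold of 50. The Osiris genes depended on the UO source. Osi6 had 14654 in U+actD and 3988 in UO, a difference of 0.77, but -1.82 with the UO scanner array. Osi14 had -0.08 and -1.94, and Osi20 0.90 and -1.92, with the table column and the scanner array. The Osiris median with the scanner array was -1.51 over 8 genes, 6 of them 2-fold lower, where 10% of all genes were lower. The 20 genes of chitin synthesis and matrix organisation that were measured had a median of 0.25, with 3 higher and none lower. Their direction depended on the UO source too, with -0.70 over 24 genes by scanner, none higher and 5 lower.

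Ribosomal protein messages differed little between the arrays at 3 hours beside their difference at the pulse. The median of 87 genes was -0.23, beside -0.15 over all genes, with 4 genes 2-fold higher in U+actD and none lower, whereas at the pulse it was -1.43, with none higher and 77 lower. RpL4 had 113454 in U+actD and 64994 in UO at 3 hours (-0.30), RpS24 103202 in U+actD and 65048 in UO (-0.44), RpS16 113439 in U+actD and 29254 in UO (0.85) and RpL32 113248 in U+actD and 36982 in UO (0.51). These values are limited by the scanners, because 48 of the 87 genes in U+actD and 27 in UO stood at or above 90% of the highest value the scan can give. On the pulse arrays 60 of the 87 stood at that limit in at least 1 series, 27 of them in both, so most single pulse differences carry no size. In the 18 genes below the limit on both pulse and both 3-hour arrays the median was -0.26 at 3 hours, with 3 higher and none lower, and -1.17 at the pulse, with none higher and 11 lower. The higher genes included RpL6 (2.16), RpL37-2 (1.68) and RpL12 (at least 1.63, saturated in U+actD). Of these, RpL6 passed 2-fold with the UO scanner array as well, at 1.02, and it had 90907 in U+actD and 9423 in UO. With the scanner array the list median was -0.74, with 2 higher and 28 lower, where 5.28% of all genes were higher and 10% lower. The small list median changed sign, to 0.05, when a curve over the signal range was subtracted.

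Other groups of the protein and energy machinery lay near the median gene at 3 hours. The median was -0.02 for 68 mitochondrial ribosomal proteins (8 higher, 4 lower), -0.22 for 44 translation factors (2 higher, 6 lower) and -0.35 for 34 proteasome subunits (none higher, 4 lower). Of all genes 11.2% were higher and 12.2% lower, against 11.8% and 5.88% of the mitochondrial ribosomal proteins and 10.4% and 14.9% of the respiratory genes next described. The respiratory chain and ATP synthase had a median of 0.10 over 67 genes, with 7 higher and 10 lower, where at the pulse it had -0.96, with 2 higher and 33 lower. Its extremes were ND-B14.5A, a subunit of complex I, with 22375 in U+actD and 1106 in UO (3.23), and ND-B17.2, another subunit, with 6870 in U+actD and 9896 in UO (-1.63). ND-B14.5A was higher with the UO scanner array too, at 4.48, and was within 2-fold at the pulse, at 0.11. ND-B17.2 had 0.27 with the UO scanner array. COX4, a subunit of cytochrome c oxidase, had 24052 in U+actD and 3666 in UO (1.61), and 0.05 with the scanner array.

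Genes of the cell cycle and DNA replication were lower in U+actD as a list, with medians of similar size at the pulse and at 3 hours. After 1 hour of chase the median was further below 0, at -1.14. Of 41 measured members 1 was 2-fold higher at 3 hours and 10 were lower, with a median of -0.54, and at the pulse 3 were higher and 15 lower, with a median of -0.69. Besides PCNA, the members lower with both UO sources were RnrL, the large subunit of ribonucleotide reductase, dup (the licensing factor Cdt1) and Mad1, a spindle checkpoint protein. RnrL had 5200 in U+actD and 9025 in UO at 3 hours (-1.90) and 53277 in U+actD and 54807 in UO at the pulse (-1.37). For dup the signals were 3179 in U+actD and 3402 in UO at 3 hours (-1.20), and it had -0.46 at the pulse. The exception was stg, the Cdc25 phosphatase that triggers mitosis, with 28102 in U+actD and 4001 in UO at 3 hours (1.71). At the pulse it had 60613 in U+actD, at the scan limit, and 20848 in UO, a difference of at least 0.21. Its difference by scanner was 1.32. Over the chase the list changed by 0.27 relative to the median gene in U+actD and in UO.

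The replication-dependent histones, whose messages have a stem-loop in place of a poly(A) tail, had 8 measured members, with 1 higher and 4 lower in U+actD and a median of -1.13. By scanner the median of 11 members was 0.14, with 1 higher and 1 lower. The copies are nearly identical, and the priming of these messages during labelling was not examined. His2Av, a polyadenylated variant, had 48385 in U+actD and 9547 in UO (1.23), and -0.59 with the UO scanner array. Targets of Notch in the E(spl) and Brd complexes had a median of -0.62 over 14 genes, with 1 higher and 5 lower, and -0.89 at the pulse. E(spl)m4-BFM had 558.2 in U+actD and 1118 in UO (-2.11, with -1.41 at the pulse and -1.63 by scanner), and E(spl)m6-BFM had 3021 in U+actD and 123 in UO (3.51, with 1.10 at the pulse and 1.27 by scanner). Related members of the same complexes thus lay at opposite ends.

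Because actinomycin D damages DNA and can kill cells, genes of cell death and the p53 response were examined. Of 26 measured members 1 was 2-fold higher in U+actD and 5 were lower (3.85% and 19.2%, beside 11.2% and 12.2% of all genes). Their median was -0.45, and at the pulse it was -0.49. The pro-apoptotic gene rpr, a p53 target, had 1699 in U+actD and 1599 in UO at 3 hours (-1.02, with -0.78 at the pulse and -0.02 by scanner). The JNK and stress kinase pathway had a median of -0.07 over 20 genes, with 1 higher and 1 lower.

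Nervous system and muscle genes were examined as the tissues that differentiate at these stages. Of 6 neuronal markers 5 were measured and 4 were 2-fold higher in U+actD, with a median of 1.22 at 3 hours and 0.10 at the pulse. The RNA-binding proteins elav and fne had 18553 and 12119 in U+actD, against 3703 and 2619 in UO (1.22 and 1.10). At the pulse both were at the scan limit in U+actD, with differences of at least 0.10 and 0.18, so the pulse median of the markers is limited in the same way. Syt1, the calcium sensor of synaptic vesicles, had 15997 in U+actD and 508 in UO (3.87), with 3.73 at the pulse, and the scanner array gave 0.94. Appl had -0.07, and nSyb had 329.4 in U+actD and 35 in UO. Of the 5 neuronal markers above background on both 3-hour scanner arrays, 4 also had a table value. Among these 4, elav alone, at 1.79, was past 2-fold by scanner. Glial markers had a median of -0.35 over 4 genes, which ranged from -1.32 to 1.04, with 1 of them 2-fold higher and 1 lower.

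Neural fate transcription factors as a group lay at the median gene, with a median of 0.04, and 0.05 at the pulse. Of 55 members 12 were higher and 7 lower (21.8% and 12.7%, beside 11.2% and 12.2% of all genes). The genes zfh2, tup, sqz and Lim3, which specify classes of neurons, were higher in U+actD with the table column (1.51, 1.37, 1.30 and 1.21) and the UO scanner array (between 1.16 and 1.62), and at the pulse they had 0.77, 1.68, 1.55 and 2.29. For tup, sqz and Lim3 the difference was larger at the pulse than at 3 hours. The gene sna, a zinc finger repressor of neuroblasts and mesoderm, was lower with both sources (-1.49 and -1.13) and had 0.14 at the pulse. Of 60 axon guidance genes 8 were higher and 7 lower (13.3% and 11.7%, close to the shares of all genes), with a median of -0.08. Rac1, a GTPase of the growth cone, had 3598 in U+actD and 272 in UO (2.62, with 2.36 at the pulse), and beat-Ia, which loosens motor axons from each other, had 1078 in U+actD and 85 in UO, with a difference of 1.88 at the pulse. CadN, an adhesion molecule of axons, had 496.4 in U+actD and 10858 in UO, a difference of -5.56 that was -0.02 with the UO scanner array. The 33 synaptic and excitability genes had a median of -0.07, with 4 higher and 2 lower, and -0.49 by scanner, with 1 higher and 8 lower.

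The direction of the muscle genes as a group depended on the UO source. Sarcomere proteins had a median of 0.85 over 23 genes, with 9 higher and none lower, and -0.30 at the pulse. Over the same 23 genes the UO scanner array gave a median of -0.58, with 2 higher and 5 lower. Mhc, the muscle myosin heavy chain, had 7546 in U+actD and 660 in UO at 3 hours (2.41), and at least 0.75 at the pulse, where U+actD was at the scan limit, but -1.12 with the UO scanner array. The troponin gene wupA had 2.34 with the table column and -0.38 with the scanner array. Glycolytic enzymes showed the same dependence, with a median of 0.74 over 12 genes (5 higher, 1 lower) and -0.40 with the scanner array (1 higher, 2 lower). No direction can be given for either list.

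Heat shock genes, which encode chaperones, depended on the UO source too. The Hsp70 and Hsp83 system had a median of 0.14 over 17 genes, with 2 higher and 1 lower, and -1.07 over 19 genes with the UO scanner array, with none higher and 11 lower. Of all genes 5.28% were higher and 10% lower with that array. Hsp70Aa had 38614 in U+actD and 16317 in UO (0.14), and -2.07 with the scanner array. The 8 small heat shock proteins had a median of -0.30, with none past 2-fold in either direction, and -1.16 over 7 genes with the scanner array, with 6 lower. Hsp23 had 13063 in U+actD and 7051 in UO (-0.22), and -2.54 with the scanner array.

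**Figure D5:**
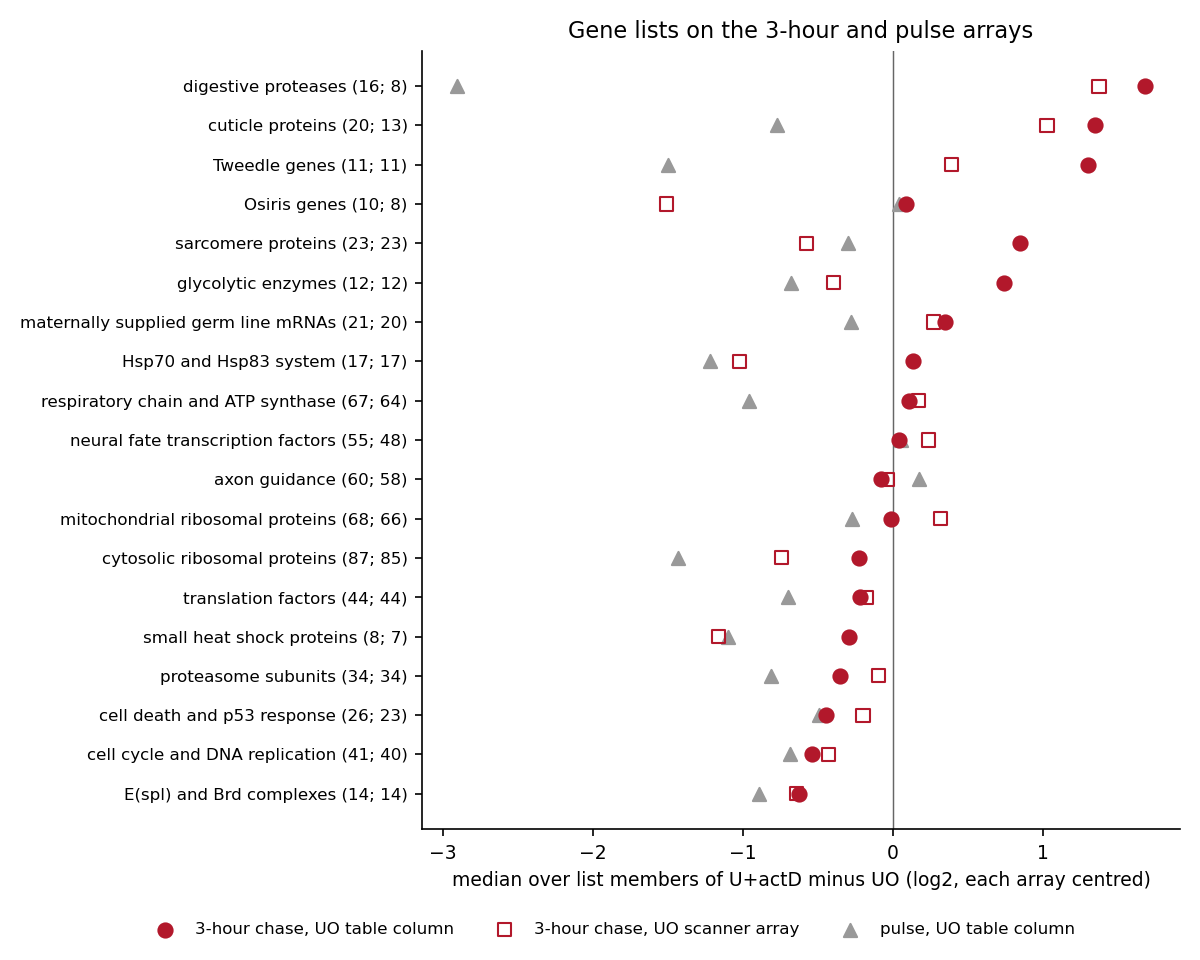
Median over list members of U+actD minus UO (log2, each array centred) for 19 gene groups; filled circles, 3-hour arrays with the UO table column; open squares, 3-hour arrays with the UO scanner array; triangles, pulse arrays. The numbers in brackets are the genes with a table value and, of these, the genes with a scanner value. Proteases (1.68 and 1.37), cuticle proteins (1.35 and 1.03) and Tweedle genes (1.30 and 0.39) lie above zero with both sources and below zero at the pulse, while sarcomere and glycolytic genes change side with the source.

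Genes that the study names, and common reference messages, were examined as well. The translation initiation factor eIF4A had 100648 in U+actD and 58071 in UO (-0.31), and alphaTub84B, the main alpha-tubulin, had 115162 in U+actD and 65324 in UO (-0.29). Both were saturated in U+actD at 3 hours, so these differences carry no exact size. The growth regulator Myc had 1297 in U+actD and 1008 in UO at 3 hours (-0.74), and 33445 in U+actD and 12164 in UO at the pulse (0.13). The neuroblast and neuronal regulators dpn, svp, cas, pros and Hey lay between -0.74 and 0.32, and dlg1, CASK and Sema1a between -0.46 and 0.31. The translational repressor pum (1.06), Act5C (1.08) and His2Av were past 2-fold with the table column, and had 0.08, -0.01 and -0.59 with the UO scanner array. Gapdh1 had 0.60.

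Markers of other tissues were fewer. The median was -0.0038 for 4 hemocyte markers, -0.03 for 4 of trachea, 0.20 for 5 of gut, -0.14 for 4 of salivary gland and 0.35 for 3 of the germ line, and -0.69 for 3 of epidermis, all of them below 0 and 1 of them 2-fold lower. Yolk and eggshell genes, which mark maternal follicle cells and fat body, had 3 of 6 markers measured, and none of them was above background on both 3-hour scanner arrays. Of 38 gene lists 37 had measured members, and 1065 genes belonged to at least 1 of them. In those 1065 genes 135 were 2-fold higher in U+actD and 100 lower. Of the 1000 with a scanner value, saturated genes included, 35 were higher and 17 lower with both UO sources. The shares of all genes were 11.2% and 12.2%, and with both sources 2.29% and 2.12% of 6694 genes. Genes saturated at 3 hours were left out of the 6694, so the shares with both sources are not strictly comparable.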

How the data were processed

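Tagged RNA was purified by the authors, labelled with Cy3 beside spike-ins and hybridised to Agilent 4x44K arrays (1 array per group, 6 in all). The deposited scanner files hold, per the file headers, the foreground and local background intensity of each spot, their difference, and the percent of saturated pixels. In the table the authors deposited, this net intensity was multiplied by a factor per array (1, 1.92 and 1.7664 for the U+actD pulse, 1-hour and 3-hour arrays). Spots were left out of it, and the lowest pulse values were 600 in U+actD and 300.8 in UO. A value table deposited with the series held the same numbers. The scanner software was not given in the sources used here.

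Probes were named through the platform annotation (14512) or the gene name in the table (6122), with current RefSeq symbols, and 11528 of 32162 had no gene and were not used. Of the named probes, 9052 had values on both 3-hour arrays. Log2 signals were averaged over spots and probes, and each array was centred on its median gene. Above background means a net signal over the 95th percentile of 153 negative controls (108.2 in U+actD, 50 in UO at 3 hours). It counted as saturated when at least 50% of its pixels were. The local background was 0 at 54.9% of UO spots. Spot numbers differ between the scanner files of the series, which were matched by probe name, so array design and treatment cannot be told apart.

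With 1 array a side there is no test, and the precision is limited by that number. Many list counts are given without the share of all genes beside them, and a count near that share says nothing particular about its list. Of all genes, 11.2% were 2-fold higher and 12.2% lower at 3 hours, and 8.92% and 16.8% at the pulse. With the UO scanner array 5.28% were higher and 10% lower at 3 hours. Genes were named by rule: the 10 largest differences each way among genes past 2-fold with both UO sources, the highest, median and lowest member of a list, and genes named by the study or used as common references. Other list members were named after their values were seen. The members and lists were chosen with earlier results of these data known. Alternatives were another UO source, 2 other centrings, a loess curve, filters on dim and saturated genes, 2 summaries over probes, subtraction of the pulse difference and other folds. The centring code was tested on simulated data. Python 3.11.15, pandas 2.3.3, numpy 2.4.6, scipy 1.17.1, statsmodels 0.14.6 and matplotlib 3.10.9 were used.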

Additional observations from a re-analysis of the deposited data

Results flagged for a closer look

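The digestive proteases lay on opposite sides of UO at the pulse and after the chase. Their median difference was 1.68 at 3 hours, with 16 of 16 members above 0, and -2.91 at the pulse, with 16 of 16 below 0. Each value compares 1 array with 1 array, the members are related genes with similar sequences, and the difference between the time points was not tested.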

How the results depend on the processing

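With 1 array a side the alternatives show how values move and not whether they would repeat. The 882 genes higher in U+actD became 405 with the UO scanner array, 1562 at 1.5-fold and 424 at 3-fold. The 962 lower genes became 538 with a loess curve, 542 among genes above background on the pulse and 3-hour scanner arrays, 2200 at 1.5-fold and 223 at 3-fold. Higher genes were 47.8% of those past 2-fold, and 34.4% with the UO scanner array, 61.7% centred on the 75th percentile, 58.6% on the trimmed mean, 66.3% with the loess curve, 58.9% above background and 58.5% with the pulse difference subtracted. The ribosomal protein median of -0.23 became -0.74 with the UO scanner array, -0.0733 on the 75th percentile, -0.11 on the trimmed mean, 0.0538 with the loess curve, -0.17 above background and 1.26 with the pulse difference subtracted (on pulse values largely at the scan limit), and its ratio of signal shares became 0.594 with the scanner array.

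With the pulse difference subtracted, the protease median became 4.82, and the medians of cell cycle genes (0.0615), proteasome subunits (0.39), translation factors (0.47), glial genes (0.15) and cell death genes (0.0407) changed sign, as did CG32797 (-0.52), E(spl)m3-HLH (0.0674), E(spl)mdelta-HLH (0.35), Lim3 (-1.08), ND-B17.2 (0.26), aurA (0.40), sqz (-0.25), tefu (0.26) and tup (-0.32). With the UO scanner array the medians of ribosome biogenesis (0.11), glial genes (0.0424) and sarcomere proteins (-0.58) changed sign, as did Act5C (-0.0053), Cpr66Cb (-1.03), His2Av (-0.59), Mhc (-1.12), ND-B17.2 (0.27), Pgk (-0.31), Tpi (-0.48) and wupA (-0.38). Changes of sign are given here only for lists whose 95% interval of the median excluded 0, and for genes past 2-fold, with the table column. Further lists crossed 0 with the scanner array, among them glycolytic enzymes (0.74 to -0.40), the Hsp70 and Hsp83 system (0.14 to -1.07) and chitin genes (0.25 to -0.70). The cause was not tested. Counting each pair of a list and an alternative under this limit, 323 medians stayed within the spread used, 32 moved and 10 changed sign, and of pairs of a gene and an alternative 936, 131 and 17 did so. Lists and genes outside the limit that crossed 0 are counted among those that stayed or moved. The settings for low values and for the scan limit were chosen after seeing the data. No paired analysis was possible because each group is 1 array and the labels give no replicate numbers.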
